A study of Mus musculus with 16 samples.

Results

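The genes described here had lower signals in mouse embryonic stem cells (ESCs) without the coiled-coil domain of MBD3 than in ESCs with it, both in medium with LIF and after 12 days without LIF. There are 96 of them among 12155 genes that rose above a signal floor and were not left out by name or chromosome (0.790%), and among 30102 genes measured in all. The rule took each gene's brightest probe set with a maximum above log2 7 and asked for a class difference of -0.8 or lower in both conditions. Genes of chromosome Y, Peg3 and its neighbours, and the Slc, Serpin, Gst, Ifitm and Zscan4 families were left out of the rule. The genes were thus chosen by the mean log2 signal of the 3 lacking lines minus that of the 5 retaining lines, defined below, in each condition. That difference is given as a description and carries no test.

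MBD3 is a subunit of the NuRD complex, which joins nucleosome remodelling to histone deacetylation and restrains or tunes many genes in ESCs. Its coiled coil binds the GATAD2 subunits of the complex, and its methyl-CpG-binding domain (MBD) binds methylated DNA only weakly in mammals. LIF is the cytokine that keeps mouse ESCs self-renewing in serum, and its withdrawal lets them leave that state.

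The lines were male ESCs of strain 129SV. EBRTcH3 is the parental line with its own Mbd3. All other lines lack Mbd3a, Mbd3b and Mbd3c and carry a stably introduced vector: Mbd3a, Mbd3b or Mbd3c, the Mbd3a forms deltaMBD, deltaCC and deltaMBD&CC, or Empty. The 5 lines EBRTcH3, Mbd3a, Mbd3b, Mbd3c and deltaMBD are called retaining lines and the 3 lines Empty, deltaCC and deltaMBD&CC lacking lines. Each line was hybridised once with LIF and once after 12 days without it, 16 arrays in all, so a line is the replicate of its class and no line has a replicate of its own. Nothing in the labels says which arrays came from separate cultures, and p-values below measure the spread between these lines. The labels do not say whether a line was 1 clone or a pool, and protein amounts were not measured by these arrays. Values in lists below follow the order EBRTcH3, Mbd3a, Mbd3b, Mbd3c, deltaMBD for retaining lines and Empty, deltaCC, deltaMBD&CC for lacking lines, and are log2 RMA signals.

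The sample titles carry numbers in 2 separate runs. EBRTcH3, Mbd3a, Mbd3b, Mbd3c and Empty fall in the first run, and deltaMBD, deltaCC and deltaMBD&CC in the second, so the class difference can be read within each. Mbd3 itself read 9.10 in EBRTcH3 and 7.00 in Empty with LIF, and 9.12 in deltaCC and 8.48 in deltaMBD&CC. ESC markers were above log2 7 on average for 10 of 10 genes in both classes and conditions, with a list mean of 11.5 to 11.7 with LIF in the retaining lines. The 8 fibroblast feeder markers had list means of 4.98 to 5.45 with LIF over all lines, with 1 of the 8 above log2 7. After LIF withdrawal ESC markers averaged 10.9 to 11.4 in retaining and 11.3 to 11.5 in lacking lines. Their median class difference was then 0.30, higher in the lacking lines. Muscle and trophoblast markers differed more, in the other direction. The 3 of 4 muscle markers that were measured averaged 8.95 to 9.72 in retaining and 6.70 to 7.53 in lacking lines. The 6 of 7 trophoblast markers averaged 8.53 to 9.64 and 7.67 to 7.94. The part of this difference in cell makeup in the values without LIF was not tested, and in bulk RNA fewer cells of a type cannot be told apart from less RNA per cell. With LIF the muscle list ran the other way, at 5.45 to 5.70 in retaining and 5.82 to 6.35 in lacking lines. Neuroectoderm markers were at 7.56 to 7.70 in retaining and 6.95 to 7.18 in lacking lines with LIF, and their part in the result was not tested.

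Several sequences carry what follows. Txnip and Arrdc4, the closely related alpha-arrestin genes among the members, are shown by the 300 bases around their start sites in RefSeq (GRCm38.p6), chr3:96557707-96558006 on the plus strand for Txnip and chr7:68749189-68749488 on the minus strand for Arrdc4. They are shown because both genes also fell after LIF withdrawal. Capitals mark CCAAT boxes on either strand in both, and also a pair of CACGNG motifs spaced by 5 bases in Txnip and a CACGTG E-box in Arrdc4.
Txnip: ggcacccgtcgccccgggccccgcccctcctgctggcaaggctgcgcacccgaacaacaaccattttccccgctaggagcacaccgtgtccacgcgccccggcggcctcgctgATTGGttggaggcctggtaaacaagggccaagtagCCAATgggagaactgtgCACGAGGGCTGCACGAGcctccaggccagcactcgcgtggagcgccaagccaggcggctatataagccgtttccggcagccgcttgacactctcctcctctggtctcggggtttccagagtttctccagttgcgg
Arrdc4: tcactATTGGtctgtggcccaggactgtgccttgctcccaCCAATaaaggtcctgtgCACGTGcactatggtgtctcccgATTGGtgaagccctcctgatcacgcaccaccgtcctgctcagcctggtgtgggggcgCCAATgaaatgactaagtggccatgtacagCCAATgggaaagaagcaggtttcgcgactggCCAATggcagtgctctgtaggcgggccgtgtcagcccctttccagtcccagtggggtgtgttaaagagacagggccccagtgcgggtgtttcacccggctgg
The paired motif is the arrangement of a carbohydrate response element, through which glucose-sensing factors act on Txnip. In Txnip it runs from base -85 to -69 relative to the start. Among 32851 promoter windows of this length it occurred in 16 (0.049%), and Txnip's was the 1 window among the 95 that belong to members. Arrdc4 has 6 CCAAT boxes in its window against 2 in Txnip.

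Of the 13 members that are predicted genes of chromosome 14, 9 have a promoter window in RefSeq. Apart from Gm3317, these windows resembled each other, with 55.9% to 94.9% of bases identical over ungapped overlaps of 186 to 300 bases, with a median of 70.9% over 28 pairs. An 80-base stretch of 3 of them, from the middle of their shared overlap, shows the copies side by side, with capitals where a base differs from Gm10406; the stretches are chr14:7027542-7027621 for Gm10406, chr14:7568596-7568675 for Gm3558 and chr14:6889998-6890077 for Gm3667, all on the minus strand of GRCm38.p6.
Gm10406: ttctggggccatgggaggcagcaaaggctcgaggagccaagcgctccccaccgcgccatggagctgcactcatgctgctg
Gm3558: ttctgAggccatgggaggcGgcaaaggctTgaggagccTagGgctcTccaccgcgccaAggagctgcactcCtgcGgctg
Gm3667: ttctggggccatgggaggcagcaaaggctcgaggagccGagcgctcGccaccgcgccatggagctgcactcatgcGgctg
Gm3558 differed at 9 of the 80 bases and Gm3667 at 3. Over the whole ungapped overlap with Gm10406 they were less alike, at 65.0% and 76.6% identical bases. Because such copies are alike, the array's probes may read more than 1 of them, and their single values are uncertain.

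A microRNA is also on the list. The probe set is assigned to Mir1906-2 on chromosome X, but mature mmu-miR-1906 is the same from Mir1906-1 at chr12:109544588-109544609 (plus strand) and from Mir1906-2 at chrX:88759485-88759506 (minus strand), with the seed, bases 2 to 8, in capitals.
Mir1906-1: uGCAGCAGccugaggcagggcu
Mir1906-2: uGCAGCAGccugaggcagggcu
The copies cannot be told apart by the mature RNA. Mir1906-1 lies within the imprinted Dlk1-Dio3 region, which also holds 2 snoRNA members.

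**Figure D1:**
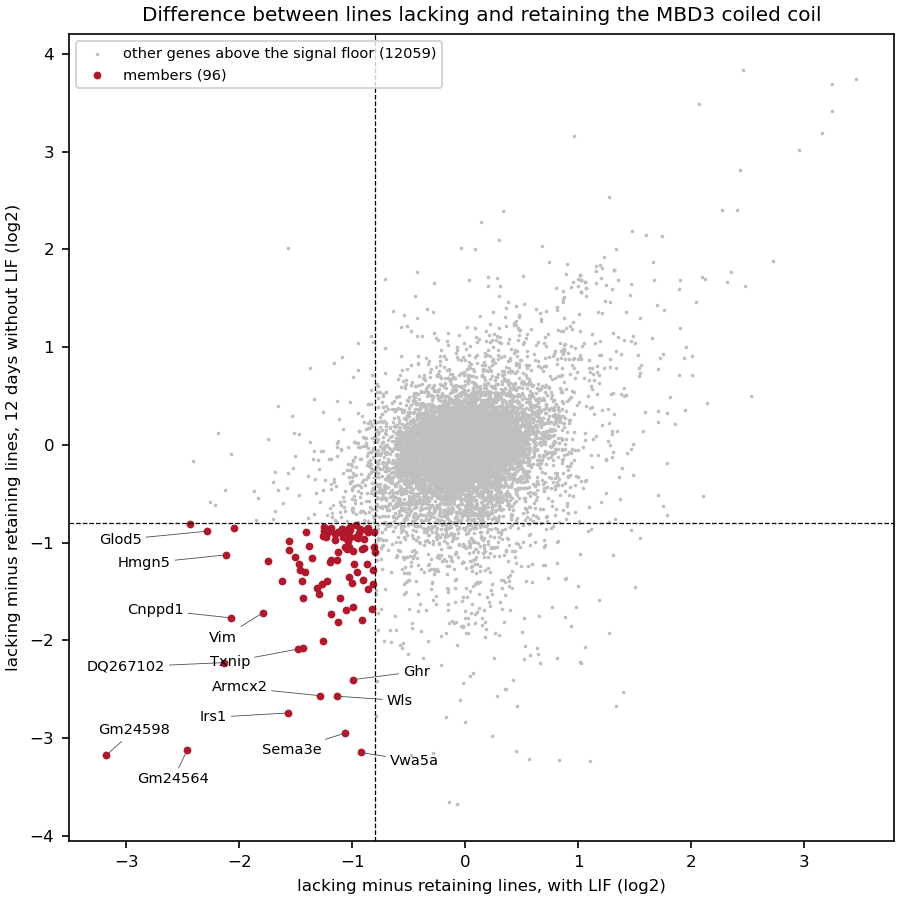
Each point is 1 of 12155 genes above the signal floor, placed by the mean of the 3 lacking lines minus the mean of the 5 retaining lines with LIF (x axis, log2) and after 12 days without LIF (y axis, log2). The 96 members, in red, lie at or below -0.8 on both axes (dashed lines), with Gm24598 the lowest at -3.18 on both.

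With LIF the class difference of the members ran from -3.18 to -0.80, with a median of -1.12, beside a median of 0.02 over the genes above the floor. Without LIF it ran from -3.18 to -0.81, with a median of -1.10 beside -0.01. In 52 members the difference was larger with LIF and in 44 without. At least 1 log2 unit was reached by 69 members with LIF and 58 without, and at least 2 units by 8 and 12. Every lacking line lay below every retaining line in 92 members with LIF, where 12.6% of all genes above the floor did so, and in 94 without LIF, where 20.3% did. The exceptions were Ahnak2, Arap2, Cntfr and Phf20l1 with LIF and Gm6665 and Glod5 without it.

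The class difference can be divided by title run. Its parts within the runs make up the difference that chose the members, so they are given as a description. Empty lay below the mean of the 4 other lines of its run, and the 2 coiled-coil-deleted lines below deltaMBD, in all 96 members and in both conditions. Medians were -1.12 and -1.18 in the first run with and without LIF, and -0.94 and -1.20 in the second. Some differences in the second run with LIF were close to none, at -0.09 for Hspa1a, -0.13 for Armcx3 and -0.145 for Plk2. In the first run 72 members were at or below -0.8 in both conditions and in the second 48. In both runs at once 35 were, beside 0.321% of the genes above the floor, a share from which nothing is read. The second run compares 1 retaining line with 2 lacking lines.

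Close to the threshold, Slit3 had class differences of -0.80 with LIF and -1.10 without, and Zfp185 of -0.81 and -1.05. Just outside were Ctbs at -0.89 and -0.80, Fxyd6 at -0.79 and -1.01, and Msl3 at -0.95 and -0.79. There were 29 members within 0.1 log2 of the threshold and 50 genes within 0.1 outside it, so the edge of the list is soft.

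**Figure D2:**
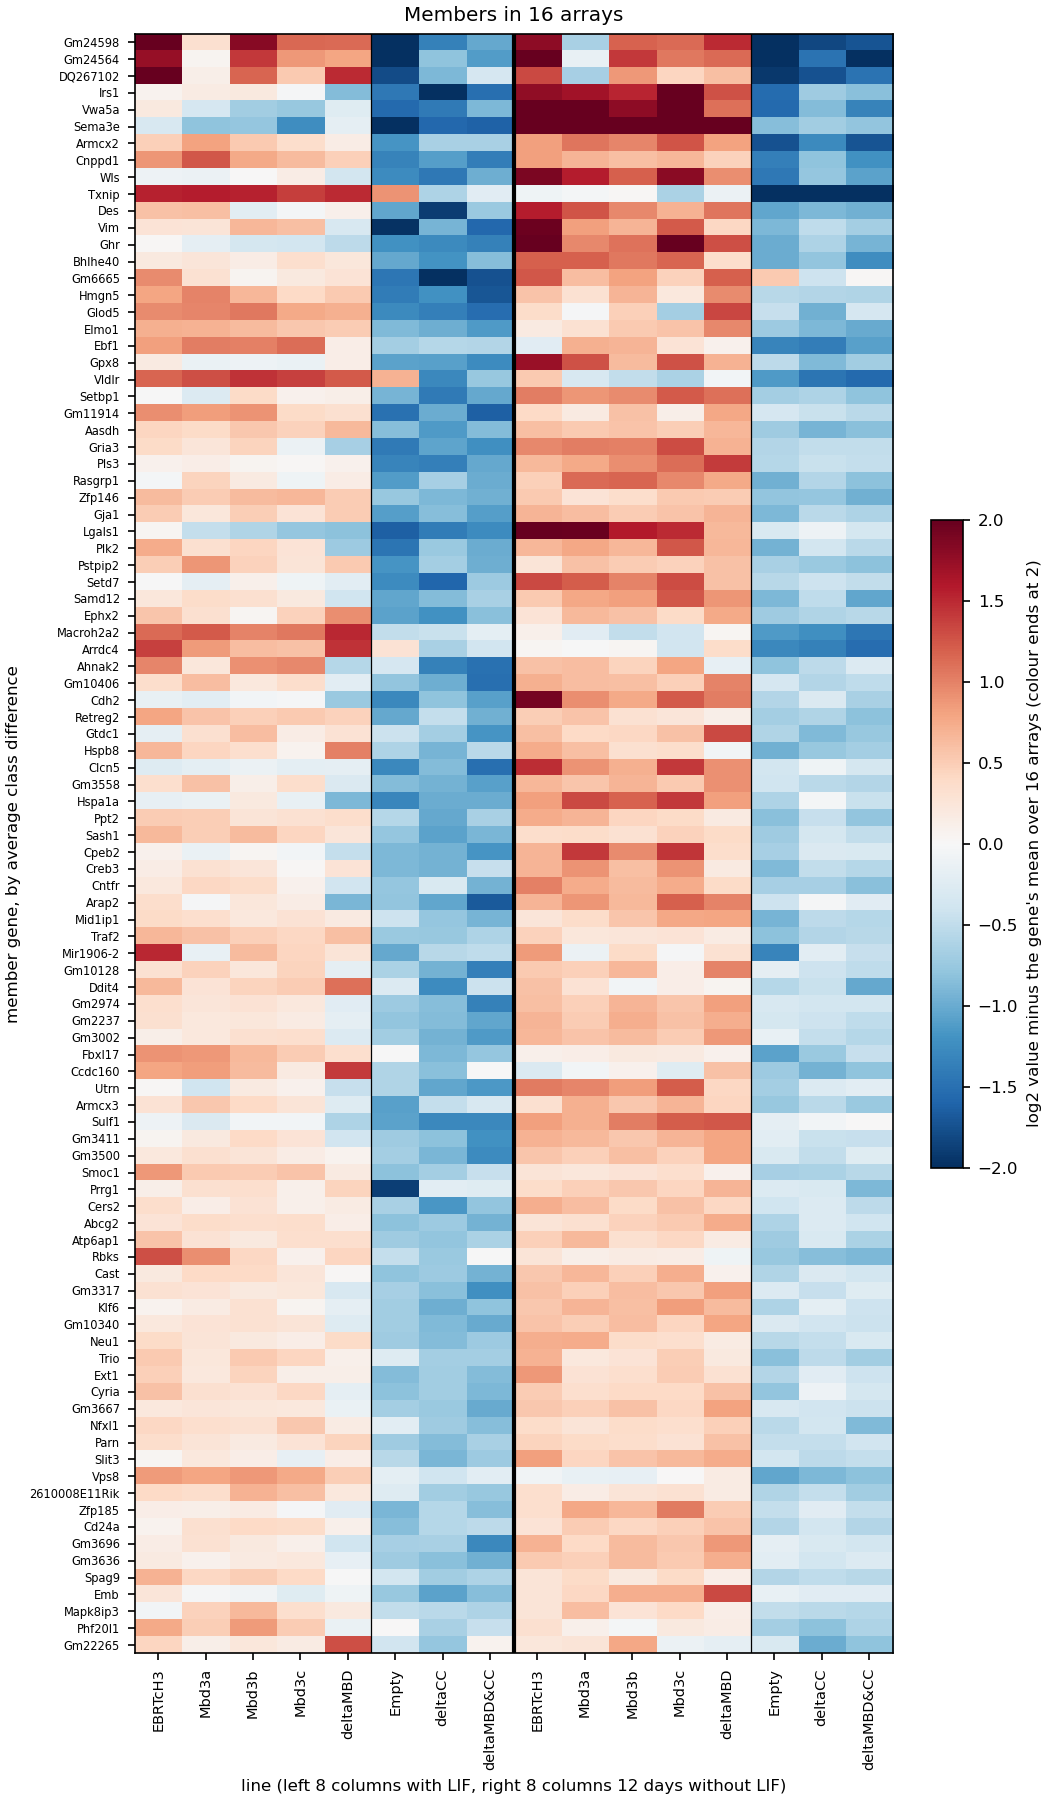
Rows are the 96 members, from the lowest class difference at the top, and columns the 16 arrays, with LIF left of the thick line and without LIF right of it, retaining lines before lacking lines. Colour is the log2 value minus the gene's mean over the arrays. The lacking columns are mainly blue on both sides of the thick line, with exceptions such as Empty with LIF in Txnip, Vldlr and Arrdc4. Txnip, Vldlr, Macroh2a2 and Arrdc4 are also lower on the right side.

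Irs1 and Ghr, of insulin and growth hormone signalling, are both among the 15 members with the lowest mean class difference. Irs1 encodes the docking protein that passes signals from the insulin and IGF1 receptors. With LIF it read 5.92, 6.02, 6.05, 5.83 and 4.99 in the retaining lines and 4.43, 3.80 and 4.34 in the lacking lines. Without LIF the values were 7.63, 7.54, 7.38, 8.14 and 7.13 against 4.31, 5.14 and 5.01. The class difference was -1.57 with LIF and -2.74 without, a 6.70-fold lower signal without LIF. DeltaMBD was the lowest retaining line for Irs1 in both conditions, and the classes did not overlap.

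Ghr encodes the growth hormone receptor. With LIF it read 5.97, 5.76, 5.59, 5.57 and 5.42 in retaining lines and 4.74, 4.67 and 4.59 in lacking lines. After withdrawal its values were 8.23, 6.91, 7.03, 8.10 and 7.23 against 4.95, 5.33 and 5.01. EBRTcH3 and Mbd3c were the high lines, and the difference grew from -0.995 to -2.40. Ddit4, which restrains mTORC1 under stress, had differences of -1.25 and -0.88.

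Txnip encodes a glucose-induced inhibitor of thioredoxin that also limits glucose uptake. With LIF it read 12.44, 12.47, 12.44, 12.29 and 12.39 in the retaining lines, an SD of 0.07, and 11.80, 10.29 and 10.68 in the lacking lines. Without LIF it read 10.82, 10.86, 10.93, 10.27 and 10.79 against 8.76, 8.71 and 8.46. With LIF Empty stood between the retaining lines and the 2 coiled-coil-deleted lines, and without LIF it stood beside the deleted lines. The class difference was -1.48 with LIF and -2.09 without.

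Arrdc4, its relative, followed the same course over the lines. With LIF it read 9.42, 8.90, 8.67, 8.63 and 9.49 against 8.34, 7.40 and 7.66, and without LIF 8.08, 8.04, 8.08, 7.66 and 8.42 against 6.76, 6.69 and 6.53. Empty was again the highest lacking line with LIF, close below Mbd3c. Vldlr, a receptor for triglyceride-rich lipoproteins and reelin, shared this feature, with Empty at 7.27 and deltaCC and deltaMBD&CC at 5.28 and 5.82 with LIF, below 7.74 to 8.02 in the retaining lines.

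Other metabolic members included Ephx2 and Gpx8. Ephx2, the soluble epoxide hydrolase, differed by -1.50 and -1.15, Cers2, a ceramide synthase for very long acyl chains, by -1.08 and -0.94, and Mid1ip1, an activator of acetyl-CoA carboxylase, by -0.98 and -1.22. Rbks, ribokinase, differed by -1.04 and -0.96, and Gpx8, a peroxidase of the endoplasmic reticulum, by -1.13 and -1.82. Abcg2, a drug efflux pump of stem cells, read 10.05 to 10.28 in retaining lines with LIF and differed by -1.12 and -0.89.

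Secreted factors, their receptors and their transport made up a set of 7 members, Ghr included, with a median difference of -0.995 with LIF and -1.79 without. Sema3e, a semaphorin that repels axons and vessels through plexin D1, read 6.49, 6.00, 6.04, 5.57 and 6.62 in retaining and 4.82, 5.23 and 5.19 in lacking lines with LIF. Without LIF it read 9.10, 8.80, 8.83, 9.23 and 8.91 against 5.95, 6.11 and 6.01. The lowest retaining line then stood 2.69 log2 units above the highest lacking line. The class difference was -1.06 with LIF and -2.95 without.

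Wls carries Wnt ligands to the cell surface for secretion. It read 7.38, 7.36, 7.49, 7.64 and 7.12 with LIF in the retaining lines and 6.22, 6.06 and 6.50 in the lacking lines. Without LIF it read 9.37, 9.06, 8.68, 9.29 and 8.41 against 6.05, 6.71 and 6.41. The lacking lines thus stayed near their level with LIF. Lgals1, galectin-1, read 9.87, 9.35, 9.23, 9.05 and 9.01 against 8.19, 8.42 and 8.56 with LIF, and 11.81, 11.80, 11.41, 11.32 and 10.48 against 9.52, 9.72 and 9.47 without. It was high in both classes after withdrawal, with deltaMBD the lowest retaining line. Slit3, a guidance ligand for Robo receptors, Smoc1, a secreted calcium-binding BMP modulator, and Cntfr, the receptor for ciliary neurotrophic factor, completed the set. Cntfr overlapped with LIF, deltaMBD at 7.67 lying below deltaCC at 7.74.

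Heparan sulfate enzymes gave 2 members. Ext1, a subunit of the polymerase that builds the chain, read 9.28 to 9.64 in retaining and 8.30 to 8.47 in lacking lines with LIF. Sulf1, a secreted sulfatase that trims 6-O-sulfates, read 7.81 to 8.38 against 7.14 to 7.36. Their differences were -1.09 and -0.99 with LIF and -0.86 and -1.08 without.

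Cytoskeletal genes were led by a pair of type III intermediate filament genes. Vim, vimentin, read 9.52, 9.50, 9.91, 9.85 and 8.92 in the retaining and 7.27, 8.31 and 7.68 in the lacking lines with LIF. Without LIF it read 11.20, 10.06, 9.93, 10.48 and 9.66 against 8.34, 8.74 and 8.57. EBRTcH3 was the highest line without LIF and Empty the lowest in both conditions. Differences were -1.79 and -1.72.

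Des, desmin, is the filament of muscle cells. With LIF it read 7.25, 7.26, 6.46, 6.63 and 6.76 in the retaining lines and 5.62, 4.77 and 5.92 in the lacking lines, and without LIF 8.24, 7.92, 7.63, 7.36 and 7.74 against 5.63, 5.76 and 5.70. The classes were separate in both conditions, the difference being -1.44 and -2.08. The muscle markers named above moved with Des without LIF but not with LIF. Pls3, an actin bundler, read 8.98 to 9.09 against 7.59 to 7.93 with LIF, and its retaining lines were close together.

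Regulators of Rac and of membrane remodelling were also present. Elmo1, which activates Rac together with DOCK proteins, read 8.08, 8.06, 8.00, 7.90 and 7.88 against 6.48, 6.39 and 6.23 with LIF, and 7.55, 7.67, 7.89, 7.94 and 8.33 against 6.64, 6.46 and 6.35 without. The mean of each class was at about the same level with and without LIF, although single retaining lines changed by -0.53 to 0.45. Trio, a Rac exchange factor, differed by -0.90 and -1.06 and Cyria, a Rac1-binding protein, by -1.09 and -0.86. Utrn, the utrophin that links actin to the membrane, differed by -0.81 and -1.28.

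Cell-contact genes gave 4 members. Gja1, connexin 43 of gap junctions, was bright, at 10.78 to 11.07 in retaining and 9.45 to 9.71 in lacking lines with LIF, and differed by -1.42 and -1.30. Cdh2, N-cadherin, read 6.97, 6.90, 7.06, 7.09 and 6.37 against 5.82, 6.31 and 6.02 with LIF, and 9.03, 8.04, 7.87, 8.34 and 8.14 against 6.53, 6.83 and 6.46 without. DeltaMBD lay only 0.06 above deltaCC with LIF. Cd24a and Emb, a surface glycoprotein and an immunoglobulin-like adhesion protein, differed by -0.90 and -0.86 with LIF and -0.96 and -0.89 without.

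Scaffolds of the JNK pathway appeared as relatives: Mapk8ip3 and Spag9, which encode JIP3 and JIP4 and tie cargo to kinesin and dynein. They differed by -0.87 and -0.96 with LIF and by -0.87 and -0.82 without. Traf2, an adaptor of TNF receptors, read 7.24 to 7.49 against 6.07 to 6.21 with LIF. Rasgrp1, a Ras exchange factor, differed by -1.05 and -1.69, and Plk2, a polo-like kinase induced by p53, by -1.27 and -1.42.

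Transcription and chromatin genes gave 11 members. Macroh2a2, the histone variant macroH2A2 of silent chromatin, read 9.81, 9.90, 9.67, 9.73 and 10.18 against 8.19, 8.24 and 8.48 with LIF, and 8.78, 8.45, 8.18, 8.30 and 8.72 against 7.54, 7.46 and 7.24 without. Its retaining lines without LIF came down to about the level of the lacking lines with LIF. Hmgn5, a nucleosome-binding protein that opens chromatin, read 8.10, 8.30, 7.98, 7.71 and 7.83 against 5.91, 6.10 and 5.60 with LIF, and 7.89, 7.62, 7.99, 7.53 and 8.25 against 6.76, 6.72 and 6.71 without. Its difference was -2.11 with LIF and -1.13 without. The narrower difference came with higher values in the lacking lines.

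Among transcription factors, Ebf1, known from B cells and mesenchyme, read 8.18, 8.38, 8.36, 8.47 and 7.49 against 6.68, 6.78 and 6.77 with LIF, and 7.13, 8.06, 8.04, 7.62 and 7.44 against 6.03, 5.97 and 6.27 without. DeltaMBD was the lowest retaining line with LIF and EBRTcH3 without. Bhlhe40, a clock and hypoxia repressor, read 8.63, 8.67, 8.57, 8.77 and 8.66 against 7.40, 7.24 and 7.57 with LIF. Without LIF it read 9.62, 9.62, 9.48, 9.60 and 8.78 against 7.43, 7.64 and 7.18, deltaMBD standing apart from the other retaining lines. Klf6 and Creb3 differed by -0.91 and -0.96 with LIF and -1.06 and -1.30 without. Setd7, a lysine methyltransferase, and Setbp1, a SET-binding protein, differed by -1.11 and -1.19 with LIF and -1.57 and -1.73 without. Zfp146, a zinc finger protein, had a small spread, 8.93 to 9.09 against 7.47 to 7.67 with LIF, and differed by -1.46 and -1.28.

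Lysosomal and endosomal genes included Neu1, the lysosomal sialidase, Ppt2, a thioesterase, Atp6ap1, an accessory subunit of the proton pump, Clcn5, an endosomal chloride-proton exchanger, and Vps8, a tethering factor of early endosomes. With LIF they differed by -1.04, -1.13, -1.05, -1.03 and -1.02, and without LIF by -0.91, -1.18, -0.95, -1.35 and -0.88. Retreg2, of the endoplasmic reticulum, had a larger difference with LIF and is described with its neighbour Cnppd1. Chaperones were represented by Hspa1a, an inducible HSP70, which differed by -0.86 and -1.47, and Hspb8, a small heat shock protein, by -1.20 and -1.19. Gria3, an AMPA receptor subunit, differed by -1.29 and -1.52.

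Several leading members are less well known. Vwa5a, a von Willebrand factor A domain protein, read 7.04, 6.52, 6.15, 6.09 and 6.61 against 5.29, 5.43 and 5.95 with LIF, and 9.03, 8.93, 8.64, 9.18 and 7.96 against 5.29, 5.99 and 5.52 without. With LIF deltaMBD&CC lay only 0.14 below Mbd3c, and without LIF the classes were far apart. Its difference of -0.93 and -3.15 changed more between the conditions than that of any other member. Cnppd1, a protein with a cyclin-like domain, read 8.31, 8.67, 8.18, 8.05 and 7.90 against 6.09, 6.33 and 6.04 with LIF and 8.25, 8.10, 8.02, 8.09 and 7.88 against 6.06, 6.62 and 6.21 without. Both its levels and its difference, -2.07 and -1.77, were much alike in the 2 conditions. Glod5, a glyoxalase domain protein, differed by -2.28 with LIF and -0.88 without, where Mbd3c at 5.54 lay below Empty at 5.75.

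Armcx2 and Armcx3 are adjacent X-linked genes of armadillo-repeat proteins of mitochondria. Armcx2 read 8.78, 9.11, 8.83, 8.66 and 8.45 against 7.12, 7.66 and 7.66 with LIF, and 9.12, 9.37, 9.28, 9.57 and 9.11 against 6.56, 7.03 and 6.58 without. Its retaining lines were higher and its lacking lines lower after withdrawal. Armcx3 differed by -0.87 and -1.22, and a dimmer second probe set of Armcx3 by -1.14 and -1.60.

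**Figure D3:**
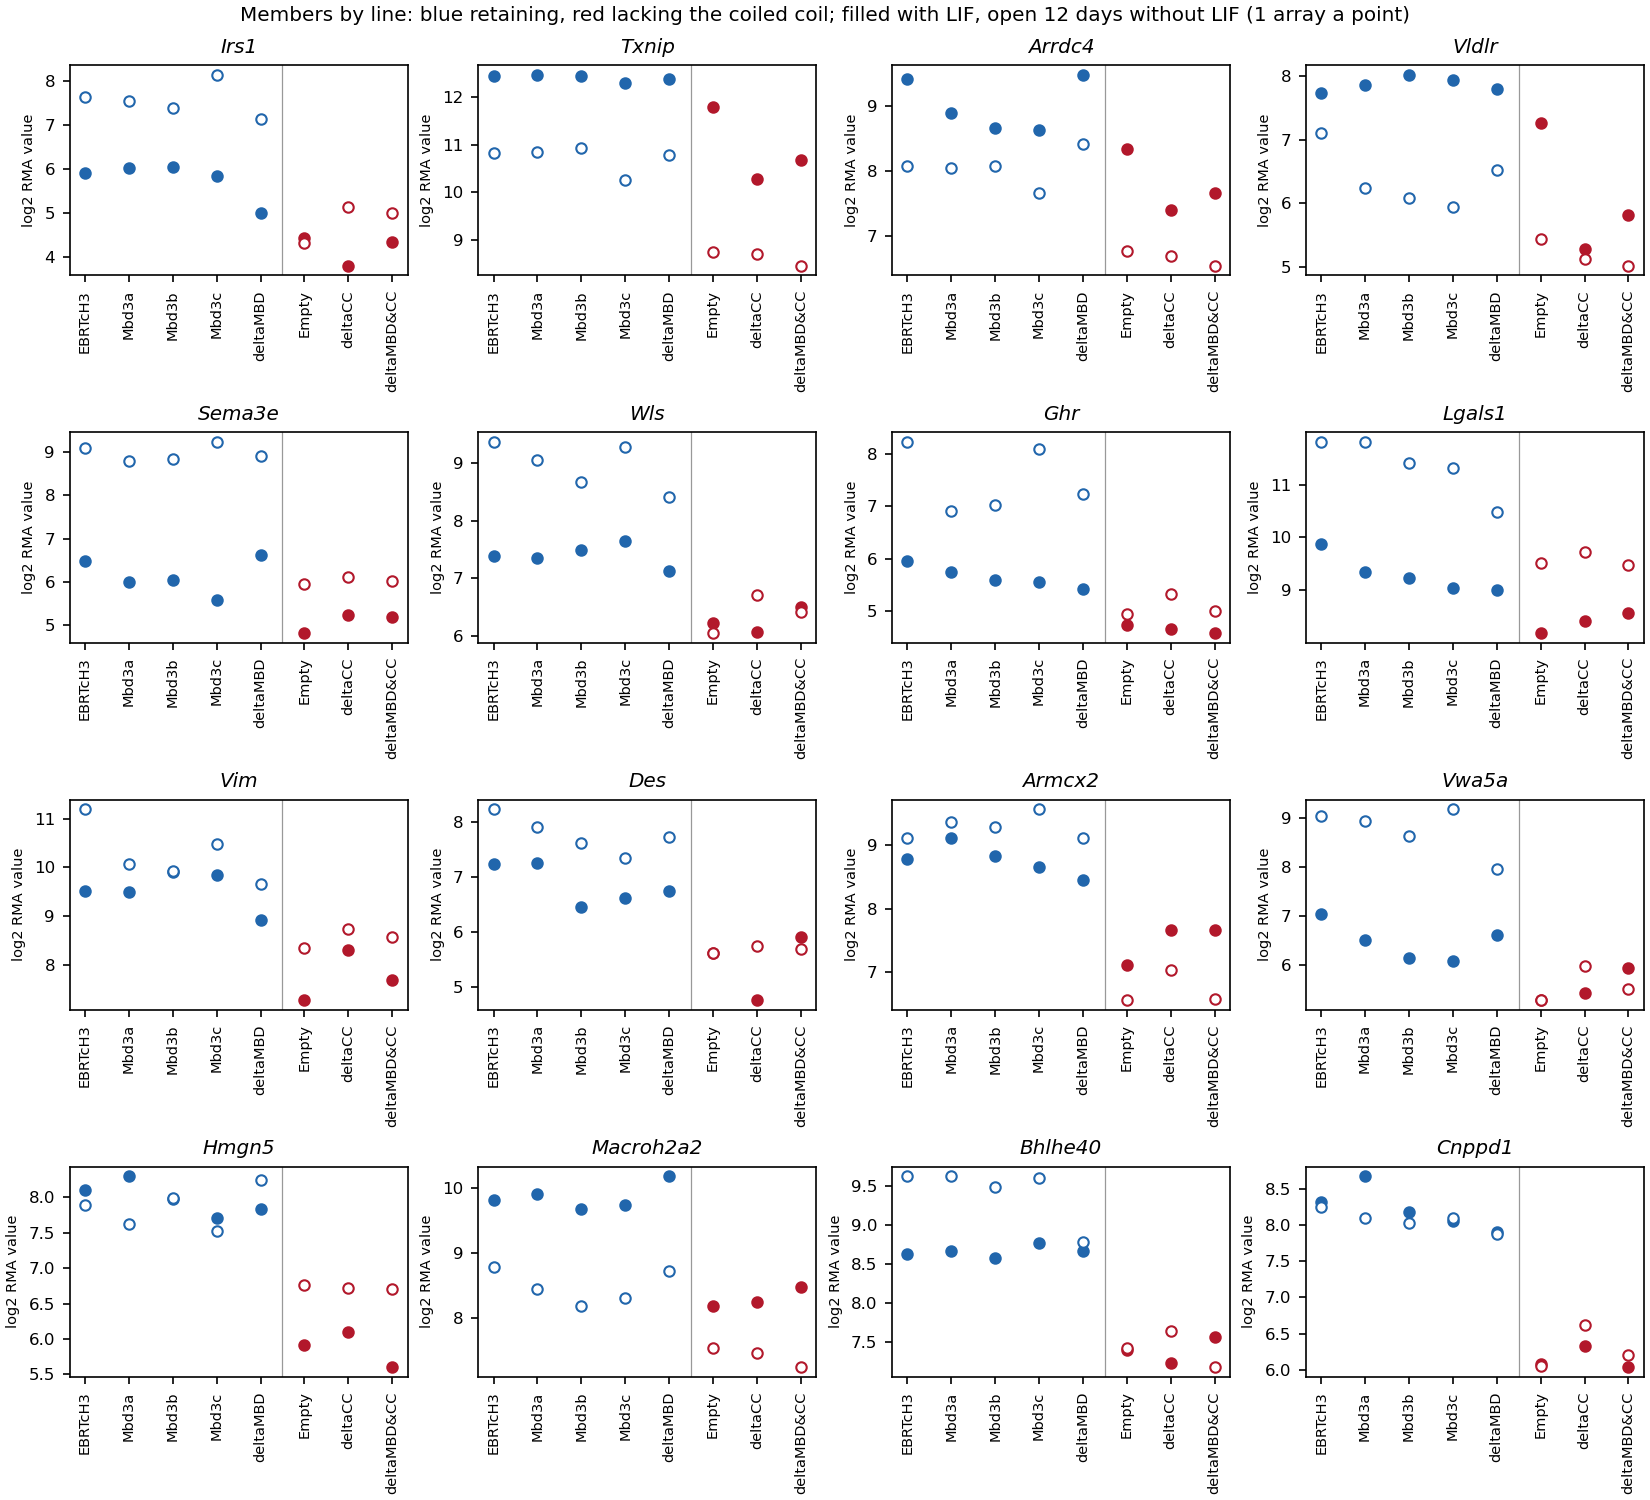
Each panel shows the log2 RMA value of 1 member (y axis) in the 8 lines (x axis), blue for retaining and red for lacking lines, filled with LIF and open without, 1 array a point. Of the 16 panels, in Cnppd1 the filled and open points lie close together, while in Sema3e, Wls and Vwa5a the open blue points stand far above all others.

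Small noncoding RNAs held the 3 lowest class differences averaged over both conditions. They lie outside the rule for named genes and were chosen after their values were seen. Gm24598, a snoRNA gene of chromosome X, read 9.07, 6.85, 8.36, 7.68 and 7.67 in retaining and 3.56, 5.18 and 5.51 in lacking lines with LIF, and 8.33, 5.89, 7.72, 7.67 and 8.02 against 3.52, 4.72 and 4.81 without. Gm24564, a snoRNA gene of the Dlk1-Dio3 region, read 8.96, 7.27, 8.62, 8.08 and 8.00 against 4.69, 6.40 and 6.09 with LIF, and 9.37, 7.06, 8.63, 8.26 and 8.34 against 4.70, 5.74 and 5.19 without. In both, EBRTcH3 was the highest line, Mbd3a the lowest retaining line and Empty the lowest of all. DQ267102, a second snoRNA of that region, read 9.68, 7.48, 8.52, 7.88 and 8.86 against 5.57, 6.46 and 7.03 with LIF, and Mir1906-2 read 8.32, 6.67, 7.45, 7.25 and 7.07 against 5.79, 6.26 and 6.30. These 4 small RNAs had EBRTcH3 on top and Empty at the bottom in both conditions. The fifth small RNA member, the small nuclear RNA gene Gm22265, did not: with LIF deltaMBD was highest at 7.76 and deltaCC lowest at 5.71, and without LIF Mbd3b was highest at 7.25 and deltaCC lowest at 5.49. The arrays used a whole-transcript label, so whether the probe sets read the mature small RNA or a longer precursor was not tested.

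Between Dlk1 and Dio3, 57 genes were measured, 11 of them snoRNAs and 42 microRNAs. A class difference of -0.8 or lower in both conditions was seen in 6 snoRNAs and 2 microRNAs. Apart from the 2 members, these snoRNAs were under the signal floor: AF357426, for example, had means of 5.67 and 3.26 with LIF and differed by -2.40 and -2.14. Dlk1 itself differed by -0.14 with LIF and -1.05 without, and Dio3 by 0.26 and 0.57. The low values were thus found in part of the region's small RNAs. The snoRNAs that missed the cut were dim as well, with retaining means of 3.34 to 4.84 with LIF. Whether they were detected at all is uncertain.

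**Figure D4:**
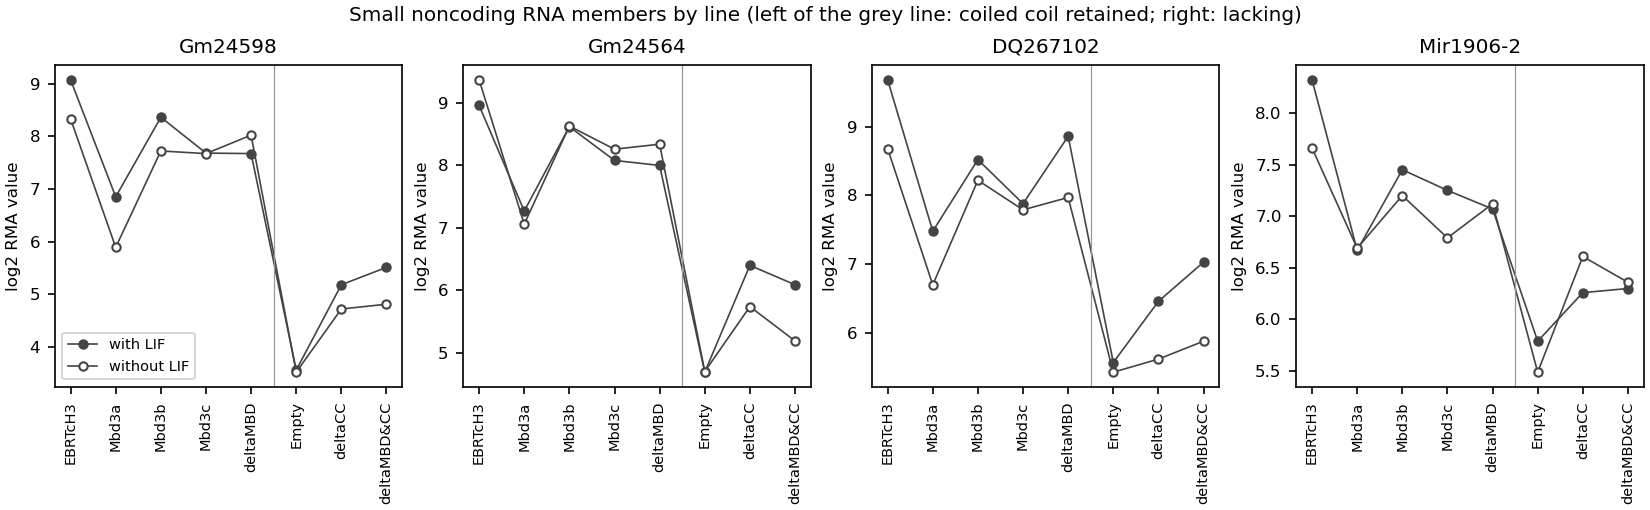
The panels give the log2 RMA value (y axis) of 4 small noncoding RNA members in the 8 lines (x axis), filled points with LIF and open points without, 1 array a point. Gm22265 is not plotted. The line EBRTcH3 is highest and Empty lowest in each panel, with Mbd3a the lowest retaining line.

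By position, 14 members lie on chromosome 14 and 14 on chromosome X, 14.6% of the members each, where these chromosomes hold 3.51% and 4.68% of the genes above the floor. On chromosome 14, 13 of the 14 belong to the predicted family described above, so this count rests on that family. Their differences with LIF had a median of -1.05 and without LIF of -0.95. In the stretch that holds 12 of them, 29 predicted genes were above the floor and 17 were not members. Some of these were near the threshold, such as Gm3239 at -0.81 and -0.79, while others were near 0, such as Gm3348 at 0.20 and -0.04. In the X-linked group are Armcx2, Armcx3, Hmgn5, Glod5, Gria3, Pls3, Clcn5, Mid1ip1, Ccdc160, Prrg1, Atp6ap1, Zfp185, Gm24598 and Mir1906-2.

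Adjacent members outside chromosome 14 were few. Cnppd1 and Retreg2, an ER-phagy regulator, are next to each other on chromosome 1, and Retreg2 differed by -1.38 and -1.04. Between Retreg2 and Des lie 12 genes. Of the 15 genes from Cnppd1 to Des, these 3 met the rule, and genes between them did not, such as Stk16 at -0.16 and -0.27. Ext1 and Samd12 are neighbours on chromosome 15, and Samd12 differed by -0.99 and -1.66. On chromosome 17, 1 gene lies between Neu1 and Hspa1a, and on chromosome 18, 7 genes lie between Pstpip2 and Setbp1.

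The promoter windows were also searched for common motifs. Windows in RefSeq were found for 68 of the 96 members, 95 windows in all. CACGTG was in 11.6% of the members' windows and 10.5% of those of all genes above the floor, GGGCGG in 60.0% and 64.7%, CCAAT in 28.4% and 38.05%, TGACG in 25.3% and 31.5% and TATAAA in 7.37% and 6.65%, searched on both strands. Over all 32851 windows these shares were 7.15%, 35.7%, 37.4%, 20.8% and 13.6%. The median GC content was 61.0% in members and 61.3% in genes above the floor, with 17 and 21 CpG in the median window. CACGTG was present in windows of 10 members, namely Irs1, Sema3e, Klf6, Retreg2, Cers2, Utrn, Arrdc4, Gm10406, Gm2974 and Gm3411.

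Of the 26 gene lists of pathways and cell types, 7 held a member and 19 held none. Vldlr and Ddit4 were the 2 members on the list of ATF4 and CHOP stress genes. In that list 5 of 15 genes above the floor were at or below -0.8 with LIF and 4 without, with medians of -0.60 and -0.29 beside 0.02 and -0.01 over all genes above the floor, of which 2.58% were that low with LIF and 4.94% without. Sema3e was the member on the axon guidance list, where 4 of 18 genes were that low with LIF and 7 without, with medians of -0.14 and -0.70. Without LIF such genes were also many on lists with 1 member or none, 8 of 11 for muscle, 11 of 19 for trophectoderm and trophoblast and 9 of 18 for Wnt signalling, where 1, 1 and 0 were that low with LIF. Cdh2, on the lists of primed epiblast and of junctions, Vim of extracellular matrix and mesenchyme, Des of muscle and Plk2 of p53 targets were the others. The 28 pluripotency genes, 14 NuRD subunits, 18 Wnt genes and 13 imprinted genes above the floor held no member. Only 0.790% of all genes above the floor are members, so lists of this size would mostly hold none. Nothing is read from their absence. Of the 13 imprinted genes, 2 were at or below -0.8 with LIF and 7 without, with medians of -0.34 and -0.88. The rule left out Peg3 and its neighbours, and the 2 snoRNA members of the imprinted Dlk1-Dio3 region are not on that list.

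The response to LIF withdrawal, averaged over all 8 lines, was tested. It is not the class difference that chose the members, but it is not independent of their choice. The rule asked for a drop without LIF, which can favour genes that rose in the retaining lines, and these are 5 of the 8. How far this raised the shares below was not tested. The signal floor of the rule also read the arrays of both conditions. It was reached only without LIF by 11 members, Irs1, Sema3e, Ghr, Gpx8, Setbp1, Gria3, Rasgrp1, Samd12, Cpeb2, Hspa1a and Prrg1, and only with LIF by 2, Rbks and Fbxl17, so the direction of their response was in part set by the choice. Of the 96 members 46 rose and 10 fell (limma with line as a block, adjusted p under 0.05), or 47.9% and 10.4%. Over all 22872 tested genes 15.1% rose and 9.89% fell, and among the genes above the signal floor 20.4% and 14.8%. The median change was 0.26 in the members and 0.02 over all tested genes. Among the 83 members above the floor in each condition by itself, 37 rose and 9 fell, or 44.6% and 10.8%, beside 18.4% and 14.4% of all genes above it in each condition. Of the 46 that rose, 12 are copies of the chromosome 14 family, whose values over the 16 arrays go together and may be cross-read. Outside that family 34 of 83 members rose and 10 fell, or 41.0% and 12.0%, and with the floor reached in each condition too, 25 of 70 rose and 9 fell, or 35.7% and 12.9%. Without the block by line, 12 rose and 5 fell. That fit has no term for class, so the class difference that chose the members counts in it as spread. Calls lost without the block are thus partly set by the choice of members.

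Sema3e rose most, by 2.12 (SE 0.30, adjusted p = 0.00141, limma), in 8 of 8 lines. Lgals1 rose by 1.73 (SE 0.17, adjusted p = 0.000218, limma) in 8 of 8 lines, and Ghr by 1.31 (SE 0.25, adjusted p = 0.00462, limma) in 8 of 8. Irs1 rose by 1.36 (SE 0.23, adjusted p = 0.00281, limma) in 7 of 8 lines, Empty being the exception. Vwa5a rose by 1.43 (SE 0.37, adjusted p = 0.0175, limma) in 6 of 8 lines, but its adjusted p was 0.0512 without Mbd3b. Cdh2, Clcn5, Hspa1a and Wls rose by 1.09, 1.15, 1.11 and 1.03. Without the block, the calls of Irs1, Vwa5a and Wls were lost, at adjusted p of 0.0807, 0.0761 and 0.136 in limma.

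Txnip fell by 1.90 (SE 0.16, adjusted p = 0.000147, limma), down in 8 of 8 lines, and Arrdc4 by 1.03 (SE 0.11, adjusted p = 0.000286, limma), also in 8 of 8. Vldlr fell by 1.28 (SE 0.20, adjusted p = 0.00208, limma), Macroh2a2 by 1.19 (SE 0.11, adjusted p = 0.000195, limma) and Vps8 by 0.74 (SE 0.09, adjusted p = 0.000483, limma), each in 8 of 8 lines. Both alpha-arrestins thus fell after withdrawal and were lower in lacking lines. Ebf1, Ccdc160 and Rbks fell by 0.57, 0.60 and 0.48, and these 3 calls were lost without the block, at adjusted p of 0.307, 0.159 and 0.225 in limma. The call of Rbks was also lost without Mbd3a, at an adjusted p of 0.0537 in limma.

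Given by class and without a test, the responses were as follows. The mean change in retaining lines had a median of 0.28 over the members, from -1.67 to 2.83, and in lacking lines of 0.31, from -2.28 to 2.13. In all 5 retaining lines 48 members were higher without LIF, where 30.1% of genes above the floor were, and in all 3 lacking lines 50 were, where 21.0% of genes were. A mean change above 1 log2 was reached by 14 members in retaining and 3 in lacking lines. Sema3e changed by 2.83 ± 0.51 (SD, n = 5) in retaining and 0.94 ± 0.16 (SD, n = 3) in lacking lines, Vwa5a by 2.27 ± 0.65 and 0.04 ± 0.50, Wls by 1.56 ± 0.32 and 0.13 ± 0.45, and Irs1 by 1.80 ± 0.41 and 0.63 ± 0.73. Their wider class difference without LIF came with a larger change in the retaining lines. Hmgn5 changed by -0.13 ± 0.40 and 0.86 ± 0.25, and the pseudogene Gm6665 by 0.51 ± 0.31 and 2.13 ± 0.46. In 22 members, among them Cnppd1, Elmo1, Zfp146, Aasdh and Traf2, both class means changed by less than 0.3.

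**Figure D5:**
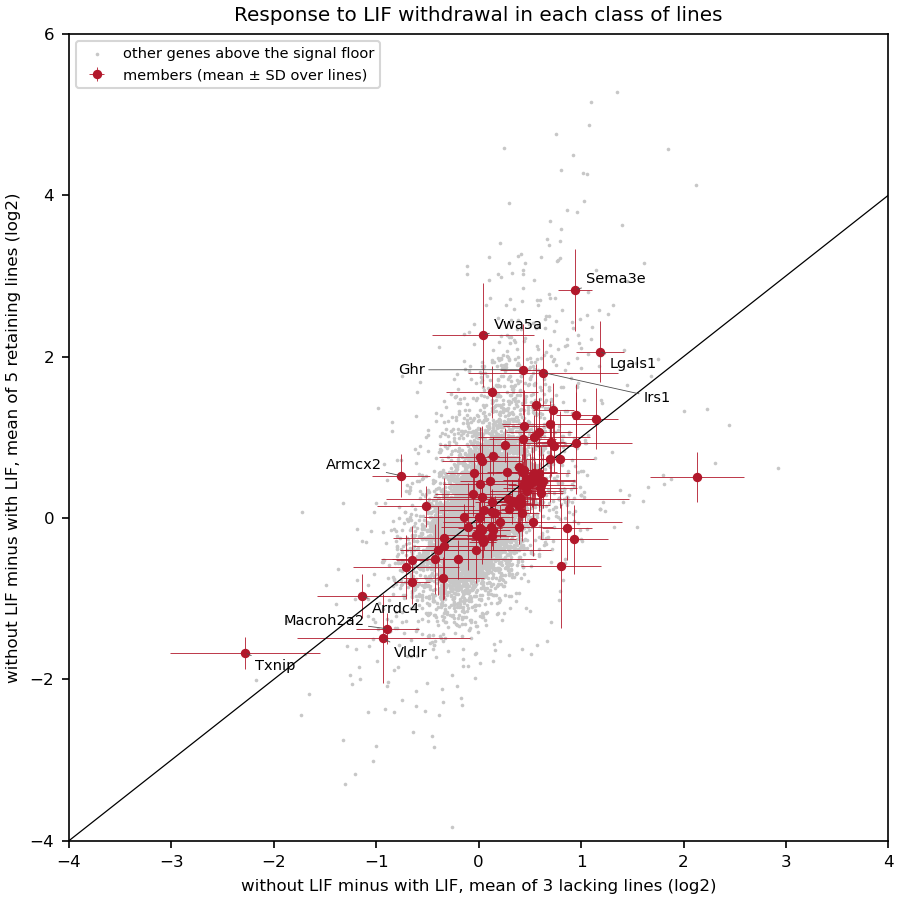
For each gene above the signal floor, the mean change after LIF withdrawal in the 3 lacking lines (x axis, log2) is set against that in the 5 retaining lines (y axis, log2). Members are red with bars of 1 SD over lines, other genes grey, and the diagonal marks equal change. Sema3e, Vwa5a, Irs1 and Ghr lie above the diagonal, and Txnip has the lowest value of the members in both classes.

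Within the retaining class, deltaMBD could be set against the 4 other lines. The rule did not use this contrast itself, but deltaMBD is part of the retaining mean that it used. The counts below are thus not free of the choice of members. With LIF no member passed (limma, 0% of tested genes passed), and without LIF none passed either (0.0656% of tested genes). At an unadjusted p under 0.05, 33 members were lower and 6 higher in deltaMBD with LIF, and 14 and 14 without, where 17.2% of all tested genes passed that cut with LIF and 12.7% without. The median difference of the members was -0.24 with LIF, beside 0.065 over all tested genes, and 0.01 without, beside 0.01. With LIF deltaMBD was the lowest retaining line in 54 of 96 members, where it was the lowest in 29.3% of genes above the floor. DeltaMBD differs from the others in title run too, and the run and the deletion cannot be told apart.

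The members with the lowest deltaMBD values with LIF were Ahnak2 at -1.35 (SE 0.27), Plk2 at -1.16 (SE 0.19) and Arap2 at -1.10 (SE 0.23), each with an adjusted p of 0.143 in limma. The highest was Gm22265 at 1.04, followed by Ccdc160 at 0.80 and Hspb8 and Ddit4 at 0.63. Without LIF, Lgals1, Vwa5a and Bhlhe40 were at -1.11, -0.98 and -0.80, and Glod5, Gtdc1 and Emb at 1.30, 0.82 and 0.79, with adjusted p from 0.129 to 0.277 in limma. As a share of the log2 gap between the lacking lines and the 4 other retaining lines, deltaMBD stood at a median of 81.0% with LIF and 101% without. It stood below 50% in 14 members with LIF, among them Arap2, Hspa1a, Plk2, Ahnak2, Cdh2 and Irs1, and in 3 without LIF, Ahnak2, Cast and Lgals1. This share is only a description, since the rule used both deltaMBD and the lacking lines. Genes with deltaMBD near the level of the lacking lines were less likely to be chosen.

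Within the lacking class, Empty was compared with the 2 coiled-coil-deleted lines. No member passed with LIF or without (limma, 0% of tested genes in either). With 1 line on one side, a difference that missed the threshold does not show that the lines were alike. At an unadjusted p under 0.05, 12 members were higher and 7 lower in Empty with LIF, and 1 and 7 without, where 12.8% and 3.79% of all tested genes passed that cut. The lowest difference with LIF was that of Gm24598, at -1.79. Among protein-coding members the largest were -1.66 (SE 0.16) for Prrg1, with an adjusted p of 0.0578 in limma, and 1.72 (SE 0.22) for Vldlr and 1.32 (SE 0.18) for Txnip, with adjusted p of 0.119 and 0.145. With an intensity trend Prrg1 passed at an adjusted p of 0.0391 in limma. Leaving out deltaMBD&CC sets 1 Empty array against 1 deltaCC array, at 7.27 and 5.28 for Vldlr with LIF. The spread then comes from the retaining lines alone, so no test result is given. Prrg1 read 4.51 in Empty and 6.18 and 6.15 in the deleted lines with LIF, but 6.12, 6.08 and 5.49 without. Empty also differs from these lines in title run, which cannot be told apart from the construct. Between deltaMBD&CC and deltaCC, of the same run, the median difference of the members was -0.02 with LIF and -0.09 without, beside 0.04 and -0.04 over all tested genes.

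EBRTcH3 could be set against the lines rescued with Mbd3a, Mbd3b or Mbd3c. With LIF no member passed (limma, 0.0350% of tested genes did), with 10 members higher and 1 lower at an unadjusted p under 0.05, where 8.11% of all tested genes passed that cut. Without LIF 1 member passed, where 1.02% of tested genes did, and 12 members were higher and 7 lower at the unadjusted cut, where 11.8% of all tested genes passed it. This was Vldlr, higher in EBRTcH3 by 1.01 (SE 0.14, adjusted p = 0.0237, limma), at 7.10 against 6.25, 6.08 and 5.95. The call was lost without deltaCC or deltaMBD&CC, at an adjusted p of 0.0707 in limma, and without Mbd3b or Mbd3c, at 0.0895 and 0.0572. With LIF the small RNAs DQ267102, Gm24598 and Mir1906-2 were highest in EBRTcH3, at 1.72, 1.44 and 1.20, and Gtdc1 and Mapk8ip3 lowest at -0.54 and -0.53. The median over the members was 0.06 with LIF and 0.08 without, beside 0.04 and 0.02 over all tested genes.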

How the data were processed

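Total RNA of 8 male mouse ESC lines, each with LIF and after 12 days without it, was hybridised to 16 Affymetrix whole-transcript arrays. The deposited log2 signals were made by RMA with affy, per the submitters' processing notes, with versions not given in the sources used here. Values ran from 0.98 to 14.21 and array medians from 4.72 to 4.85, and the number of arrays limits the precision. Of 65770 probe sets, 27 had no value, 30439 carried 1 gene symbol, 2146 several and 33158 none. The brightest one-symbol probe set stood for each of 30102 genes, and 827 symbols were updated through RefSeq.

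The members and gene lists were chosen with earlier results of these data known, and the lists were written from general knowledge. Genes named are the 15 with the lowest mean class difference, the largest tested differences, list members, neighbours and those at the threshold. All other members were named by role after their values were seen. A gene was tested where it lay above the 40th percentile on at least 3 arrays (22872 genes, all 96 members). Tests used limma 3.58.1 in R 4.3.3 with Benjamini-Hochberg adjustment over all tested genes and a threshold of 0.05, and were tested on simulated data. The response to LIF held the line as a block, since the labels give both arrays of a line the same cell line. Deviations of the paired arrays correlated by -0.05 to 0.28. Within-class contrasts were fitted per condition. Alternatives were the threshold, floor, probe set, quantile normalization, filter, intensity trend, array weights, title run, block and each line left out.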

Additional observations from a re-analysis of the deposited data

Results flagged for a closer look

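The 5 retaining lines were checked for a line far from the others in named members, each condition by itself, and 7 of 94 groups held one. Some members were named for large differences between retaining lines, such as Bhlhe40 and Gtdc1 for deltaMBD without LIF. The usual rate of about 1 in 20 therefore does not apply, and nothing is read from the count. DeltaMBD stood low with LIF in Irs1 at 4.99 (next line 5.83), in Cdh2 at 6.37 (next 6.90) and in Samd12 at 5.64 (next 6.22). Without LIF deltaMBD was low in Bhlhe40 at 8.78 (next 9.48) and high in Gtdc1 at 7.83 (next 7.11). Mbd3c stood apart without LIF in Txnip, low at 10.27 (next 10.79), and in Plk2, high at 10.28 (next 9.81).

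Armcx2 was higher without LIF in all 5 retaining lines, by a mean of 0.52, and lower in all 3 lacking lines, by a mean of -0.76. The difference of the responses was -1.28 and was not tested, since the rule for the members used the same class values.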

How the results depend on the processing

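The number of genes meeting the rule was 213 at a threshold of -0.6 and 41 at -1, and ran from 92 to 106 with 1 line left out, 81 to 93 of them shared with the members. After LIF withdrawal 46 members rose and 10 fell. Without the replicate block 12 rose and 5 fell, and 17 of the 56 calls were kept. The class difference that chose the members adds to the spread in that fit, so this loss is partly set by the rule. Leaving out 1 line gave 42 to 47 that rose and 8 to 11 that fell. Of alternatives chosen after seeing the data, keeping members above the floor in each condition gave 37 that rose and 9 that fell, and leaving out the chromosome 14 family 34 and 10. Bhlhe40 lost its call without any 1 of 6 lines, Ext1 without any 1 of 4, and Neu1 without any line but deltaMBD. For Empty against the coiled-coil-deleted lines with LIF, 1 member passed with an intensity trend, and 0 with any retaining line left out. Leaving out a coiled-coil-deleted line sets 1 array against 1, and no count is given. For EBRTcH3 without LIF 3 members passed with an intensity trend, and 0 to 2 with a line left out. No result changed direction under the alternatives run. Dim probe sets, such as the small RNAs under the floor, limit what can be said of them.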
